A study of Mus musculus with 4 samples.

Results

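Oxidative phosphorylation genes encode the respiratory chain and the ATP synthase. They were chosen by symbol: mt-, Nduf, Uqcr, Cox4, Cox5, Cox6, Cox7, Cox8, Atp5 or Sdh at the start, listed in all 4 libraries and holding at least 20 UMIs (unique molecular identifiers, each counting 1 captured RNA molecule) over all barcodes. Of 27514 genes listed in every library, 108 carried such a symbol and 107 were members, 94 encoded in the nucleus and 13 in the mitochondrial genome. Cox8b had no UMI in any library and was the only symbol left out by the UMI minimum. The nuclear members were 36 complex I subunits and 7 complex I assembly factors, 4 subunits and 4 assembly factors of complex II, 8 complex III genes, 19 complex IV genes, 15 complex V genes, and Atp5s, a coupling factor that is grouped apart.

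The RNA came from spermatogonia of adult C57BL/6J mice aged 6 to 8 weeks. CTRL mice were untreated, and BU mice had received a single dose of busulfan, an alkylating agent that depletes spermatogonia, at 10 mg/kg and were sampled on day 10. In both groups cells were sorted as E-cadherin+, CD49f+ and c-KIT-, a gate for undifferentiated spermatogonia (A_undiff), and cells of 3 mice were pooled in each library, so that differences between single mice were averaged within a library. There were 2 libraries per group from 2 experiments, CTRL 1 and BU 1 in experiment 1 and CTRL 2 and BU 2 in experiment 2. Per the labels, 10x Genomics 3' kits of version 2 were used in experiment 1 and version 3.1 in experiment 2, so kit and experiment cannot be told apart.

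Complex I (Nduf genes) and complex II (Sdh genes) pass electrons to ubiquinone, complex III (Uqcr genes) passes them to cytochrome c and complex IV (Cox genes) to oxygen. Complex V (Atp5 genes) makes ATP from the proton gradient. Complex II is encoded wholly in the nucleus, whereas complexes I, III, IV and V also hold core subunits encoded by mitochondrial DNA, which is transcribed as long precursors and then cut into single messages. Several complex IV subunits have a second copy used mainly in one tissue, such as Cox8c, Cox7b2 and Cox6b2 in testis and Cox4i2 in lung.

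Cells with more than 1000 genes and under 20% of UMIs from mt- genes were kept: 3101 in CTRL 1, 2008 in BU 1, 1120 in CTRL 2 and 1264 in BU 2. Their median depth was 8066 to 9858 UMIs in experiment 1 and 30931 to 34177 in experiment 2. A cell was put in the Gfra1+, Sox3+ or Kit+ class where the natural log of 1 plus UMIs per 100000 of that gene exceeded 2. A single UMI no longer met this limit above 15652 UMIs per cell, so that most cells of experiment 2 needed more than 1. Gfra1 marks cells rich in stem cell activity, Sox3 marks transit-amplifying progenitors and Kit marks differentiating cells. Gfra1+ cells numbered 585, 865, 214 and 528 in CTRL 1, BU 1, CTRL 2 and BU 2, Sox3+ cells 1470, 473, 646 and 264, and Kit+ cells 36, 322, 37 and 156. CTRL 2 and BU 2 had 677 barcodes in common, 70 of which passed in both, whereas CTRL 1 and BU 1 had 11 in common. Of 37 Kit+ cells of CTRL 2, 9 were high in markers of late germ cells and 2 in markers of somatic cells, and the summed late marker level there was 8336 CPM (UMIs of a gene or list per 1000000 UMIs) against 429 to 967 in Kit+ cells of the other libraries. Somatic markers summed to 11.1 to 130 CPM in these classes in every other case, against 2978 in Kit+ cells of CTRL 2.

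Promoters of nuclear members were searched for motifs of known regulators of respiratory genes. Windows of 300 bases from RefSeq (GRCm38.p6) were matched by symbol for 76 of 94 nuclear members. The core CGCATGCG of the NRF1 motif, the same on both strands, was found in 11 of 76 members (14.5%) against 2.07% of 27025 genes. The ETS motif CCGGAAG, read on both strands, was found in 20 members (26.3%) against 9.93% of genes, and the YY1 motif AAGATGGC on either strand in 9 (11.8%) against 3.19%. A CCGGAAG followed by ATGGC would count for both of the last motifs. These shares describe letters in a window, not binding, and were not tested. The first NRF1-bearing stretch shown belongs to Atp5k, whose level differed between experiments, and the second to the complex I subunit Ndufa11. They are set beside those of the testis copies Cox7b2 and Cox6b2, whose windows held none of the 3 motifs, and of Cox6b1, the widely expressed partner of Cox6b2, which held an ETS motif. Lack of a motif was not particular to testis copies. Of the 76 matched members 42 held none, among them Cox7b, the widely expressed counterpart of Cox7b2. Each stretch runs from 100 bases before the start through the first 20 transcribed bases, 5' to 3' on the gene's strand, with motif matches in capitals.
Atp5k (chr5:108434380-108434499, minus strand): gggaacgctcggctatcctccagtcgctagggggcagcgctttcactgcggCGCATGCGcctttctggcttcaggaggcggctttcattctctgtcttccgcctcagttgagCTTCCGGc
Ndufa11 (chr17:56717662-56717781, plus strand): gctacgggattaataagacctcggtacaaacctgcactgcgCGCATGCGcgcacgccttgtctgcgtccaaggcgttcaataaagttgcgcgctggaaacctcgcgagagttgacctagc
Cox6b1 (chr7:30626095-30626214, minus strand): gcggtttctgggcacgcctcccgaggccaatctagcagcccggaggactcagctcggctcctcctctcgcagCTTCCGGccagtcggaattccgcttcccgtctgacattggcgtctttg
Cox6b2 (chr7:4753075-4753194, minus strand): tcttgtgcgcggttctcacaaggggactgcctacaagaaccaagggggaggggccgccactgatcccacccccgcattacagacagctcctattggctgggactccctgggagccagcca
Cox7b2 (chr5:71548186-71548305, minus strand): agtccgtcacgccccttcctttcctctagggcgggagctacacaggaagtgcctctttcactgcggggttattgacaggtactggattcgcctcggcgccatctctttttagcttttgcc

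Among mt- genes, mt-Atp8, mt-Nd4l and mt-Nd6 share a run of bases with a neighbour, and mt-Atp6 and mt-Co3 share base 8607. Whether shared bases bear on the counts was not tested. In GRCm38 (GENCODE M21), the last 43 bases of mt-Atp8 (chrM:7766-7969) are also the first of mt-Atp6, and the last 7 of mt-Nd4l (chrM:9877-10173) are the first of mt-Nd4. The last 14 bases of mt-Nd6 (chrM:13552-14070), which is read from the opposite strand, lie across the end of mt-Nd5. UMIs within an overlap cannot be told apart on the same strand, and mt-Atp8 and mt-Nd4l each stay joined to their neighbour in 1 message. The last 60 bases of mt-Atp8, mt-Nd4l and mt-Nd6 are shown with the shared bases in capitals.
mt-Atp8: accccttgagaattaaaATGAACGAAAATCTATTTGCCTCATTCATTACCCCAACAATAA
mt-Nd4l: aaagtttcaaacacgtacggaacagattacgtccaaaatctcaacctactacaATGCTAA
mt-Nd6: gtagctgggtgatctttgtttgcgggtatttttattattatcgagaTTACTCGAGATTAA

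In Gfra1+ cells the 94 nuclear members summed to 2.85% of UMIs in CTRL 1, 2.95% in BU 1, 2.78% in CTRL 2 and 3.09% in BU 2. In Sox3+ cells the same sum was 2.89%, 3.08%, 2.76% and 3.05%, and in Kit+ cells 3.04%, 3.26%, 2.79% and 2.99%. BU libraries were above the CTRL library of their experiment in all 3 classes, and in Gfra1+ and Sox3+ cells both BU values lay above both CTRL values, whereas in Kit+ cells the groups overlapped. The mean difference was 0.203 percentage points in Gfra1+ cells (CTRL 2.82% ± 0.0534, BU 3.02% ± 0.0998, SD, n = 2 each), 0.245 in Sox3+ cells and 0.210 in Kit+ cells. Without barcodes found in more than 1 library the Kit+ difference was 0.412, with under 20 Kit+ cells left in a library. With 2 libraries against 2, a 2-sided exact permutation test cannot give a p below 0.333, and none was made.

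The mt- genes did not follow the nuclear members. Their sum in Gfra1+ cells was 6.84% of UMIs in CTRL 1, 6.54% in BU 1, 5.53% in CTRL 2 and 6.36% in BU 2, so that BU was 0.298 percentage points lower in experiment 1 and 0.840 higher in experiment 2. In Sox3+ cells the values were 7.09%, 6.62%, 6.03% and 6.31%, again lower in BU in the first experiment and higher in the second. In Kit+ cells they were 7.21%, 6.26%, 6.36% and 6.16%, lower in BU in both. The mean difference in Kit+ cells, -0.573 percentage points, turned to 0.219 in cells thinned to 5000 UMIs and to 0.100 without barcodes found in more than 1 library. Both settings left a library with under 20 Kit+ cells. The number of mt- UMIs per nuclear member UMI in Gfra1+ cells was 2.40 in CTRL 1, 2.22 in BU 1, 1.99 in CTRL 2 and 2.06 in BU 2. In bulk sums of this kind a change in the cells captured and a change in RNA per cell cannot be told apart. Barcodes with at least 20% mt- UMIs, which were left out, made up 2.61% of barcodes in CTRL 1 (95% exact binomial interval 2.09 to 3.21), 2.87% in BU 1 (2.20 to 3.68), 14.2% in CTRL 2 (12.7 to 15.8) and 9.63% in BU 2 (8.33 to 11.1). Among barcodes with more than 1000 genes these shares were 0.513%, 0.248%, 3.53% and 3.44%. The intervals cover counting error only.

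**Figure D1:**
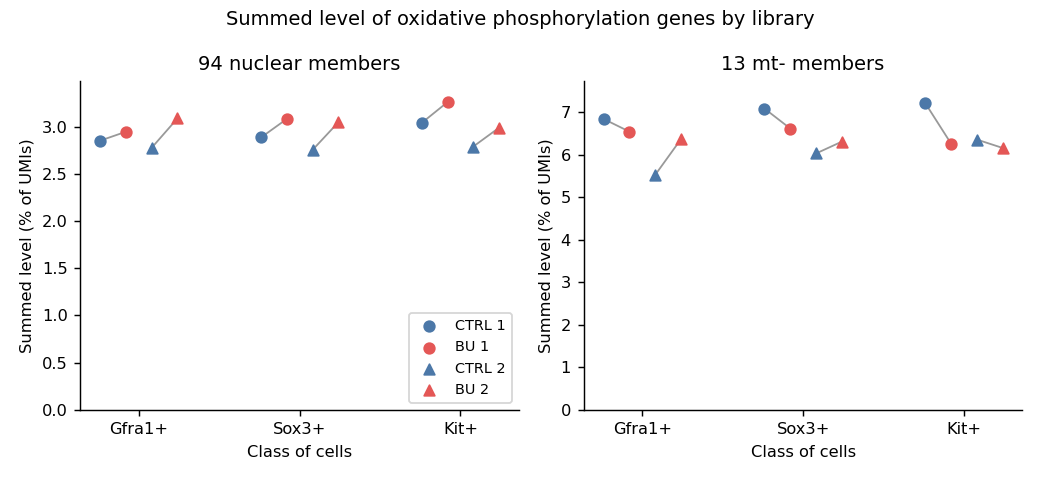
Summed level of the nuclear members (left) and mt- members (right), as a percentage of all UMIs in Gfra1+, Sox3+ and Kit+ cells, for each library (circles, experiment 1; triangles, experiment 2; blue, CTRL; red, BU). Lines join the libraries of 1 experiment. The nuclear sums rise from CTRL to BU in all 6 pairs, whereas the mt- sums rise only in experiment 2 in Gfra1+ and Sox3+ cells.

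Single members differed far more in level than the libraries did. UMIs were counted per molecule and were not scaled to gene length, so levels between genes are levels of captured message. In Gfra1+ cells the highest nuclear member was Cox4i1, the main isoform of a regulatory complex IV subunit, at 1906, 1784, 1217 and 1302 CPM in CTRL 1, BU 1, CTRL 2 and BU 2. The most abundant complex I subunit was Ndufb9 at 908, 924, 916 and 900, and the complex V member with the highest mean over the 4 libraries was the catalytic subunit Atp5b at 1015, 958, 587 and 589. In experiment 2 Atp5g1, a c-ring subunit of ATP synthase, was above it, at 812, 673, 616 and 624. Ndufb9 thus varied little, while Cox4i1 and Atp5b were lower in both libraries of experiment 2. Uqcrh, a hinge protein of complex III, was the highest of its group at 774, 759, 641 and 723. Complex II was lower: its 4 subunits Sdha, Sdhb, Sdhc and Sdhd reached 136 to 211, 159 to 202, 99.8 to 155 and 46.6 to 94.6 CPM. Among assembly factors, Ndufaf2 of complex I (65.4 to 127) and Sdhaf4 of complex II (70.3 to 116) were the highest. The lowest members were tissue isoforms: Cox6a2, a heart and muscle copy, at 0.107 to 0.446, Cox4i2 at 0 to 0.594, Ndufa4l2, a hypoxia-induced gene, at 1.05 to 3.65, and Cox7a1, another heart and muscle copy, at 4.61 to 12.5.

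BU against CTRL asks how the spermatogonia that remain after busulfan differ from untreated ones. Without regard to experiment, edgeR's quasi-likelihood test called no member in any class (adjusted p under 0.05 after Benjamini-Hochberg correction over all genes): 0 of 105 in Gfra1+ cells, 0 of 106 in Sox3+ cells and 0 of 104 in Kit+ cells. The background was 0% of genes in each class, with 13632, 14445 and 11030 genes tested. At an unadjusted p under 0.05 there were 2, 7 and 2 members, and DESeq2 also called 0 members in each class. The shares of all genes at that unadjusted p and with DESeq2 are not given here, so these counts are not read as a result about members. On simulated counts for Gfra1+ cells this fit recovered 0 of 100 genes changed 4-fold, whereas with experiment as a block it recovered 95 of 100, so a count of 0 from the first fit says little. Of 100 genes changed 2-fold the block recovered 64, and 10 of its 169 calls were of unchanged genes. Smaller changes were not simulated. In the simulation CTRL and BU of an experiment had the same mean level of each unchanged gene. A changed gene changed alike in both experiments, and the spread was fixed. The block fit thus had the form of the model that made the counts. The recoveries of both fits hold for the simulated counts, and whether they hold in the data was not tested. In the data the block called 9 of 13632 genes in Gfra1+ cells. Deviations from the group means correlated within experiment at 0.664 in those cells. The median log2 fold change of nuclear members was 0.19 in Gfra1+ cells, with 78 of 92 above 0 beside 6871 of 13632 genes, 0.10 in Sox3+ cells (58 of 93) and 0.01 in Kit+ cells (47 of 91). That of all genes was 0.00, 0.02 and -0.01. How many of all genes lay above 0 in Sox3+ and Kit+ cells is not given here. The counts above 0 in those classes are thus not read as a result about members. Complex IV had the highest median in Gfra1+ and Sox3+ cells of the 5 complexes, 0.31 over 17 genes and 0.25 over 18, neither of which was tested as a group.

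With experiment as a block, 3 of 106 members were called in Sox3+ cells, all higher in BU, beside a background of 2.58% of genes called higher and 5.69% called in all. The share of members was thus near the background. They were Ndufa1, an accessory membrane arm subunit of complex I, Ndufa4, a complex IV subunit despite its symbol, and Atp5f1, which forms the peripheral stalk of ATP synthase. A cell could be in more than 1 class in these fits. Sox3+ cells that were also Kit+ numbered 24 of 1470 in CTRL 1 and 20 of 646 in CTRL 2. In BU 1 they numbered 134 of 473, and in BU 2 86 of 264. The part of this overlap in the changes of Sox3+ cells was not tested. In Gfra1+ cells 0 of 105 members were called beside 0.0660% of genes, and in Kit+ cells 0 of 104 beside 0.952%. At an unadjusted p under 0.05 there were 10 members in Gfra1+ cells beside 1605 of 13632 genes, and 5 in Kit+ cells beside 1351 of 11030 genes. Over all passing cells, 1 of 107 was called, Ndufa1, higher in BU, beside 0.640% of genes called higher and 1.49% called in all.

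Ndufa4 (chromosome 6, 11900292 to 11907497 in GRCm38) was at 452 CPM in CTRL 1, 808 in BU 1, 416 in CTRL 2 and 749 in BU 2 in Sox3+ cells. Both BU values lay well above both CTRL values, and the log2 fold change was 0.80 ± 0.12 (SE; adjusted p = 0.0295, edgeR with block). Atp5f1 (chromosome 3, 105942698 to 105960099) was at 271, 452, 244 and 473, with the same separation and a log2 fold change of 0.80 ± 0.14 (adjusted p = 0.0357). Ndufa1 (chromosome X, 37187588 to 37191163) was at 14.7, 61.1, 48.4 and 111. Here BU was 4.05-fold CTRL in experiment 1 and 2.28-fold in experiment 2, the log2 fold change was 1.56 ± 0.25 (adjusted p = 0.0338), and the level was higher in experiment 2. In Gfra1+ cells the same genes had log2 fold changes of 0.52 ± 0.20, 0.71 ± 0.19 and 1.12 ± 0.24 for Ndufa4, Atp5f1 and Ndufa1, none of which passed (adjusted p = 0.349, 0.184 and 0.116). In Kit+ cells Ndufa4 and Atp5f1 were higher in both BU libraries, at 502, 1043, 607 and 841 and at 302, 570, 374 and 553, while Ndufa1 was at 21.2, 88.3, 167 and 150 and fell from CTRL to BU in experiment 2. Many of these cells were also Sox3+: 24 of 36 Kit+ cells in CTRL 1, 134 of 322 in BU 1, 20 of 37 in CTRL 2 and 86 of 156 in BU 2. The Kit+ values are thus not separate from those of Sox3+ cells.

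Without cells whose barcodes occurred in more than 1 library, the block called 0 of 106 members in Sox3+ cells and 39 of 13696 genes in place of 822 of 14445. The log2 fold changes of the 3 members were about as large there, at 0.84 ± 0.17 for Ndufa4 (adjusted p = 0.0831), 0.81 ± 0.18 for Atp5f1 (adjusted p = 0.103) and 1.60 ± 0.28 for Ndufa1 (adjusted p = 0.0716, edgeR with block). When very deep cells were left out instead, 11 of 106 members were called, 8 higher and 3 lower, beside 1389 of 14046 genes, 688 higher and 701 lower. Markers of dividing cells moved with condition, summing in Gfra1+ cells to 802 and 927 CPM in CTRL and 1365 and 1406 in BU, and in Sox3+ cells to 607 and 606 against 1237 and 1319. Progenitor markers in Sox3+ cells summed to 681 and 554 in CTRL against 258 and 222 in BU. The part of either in the members' levels was not tested.

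**Figure D2:**
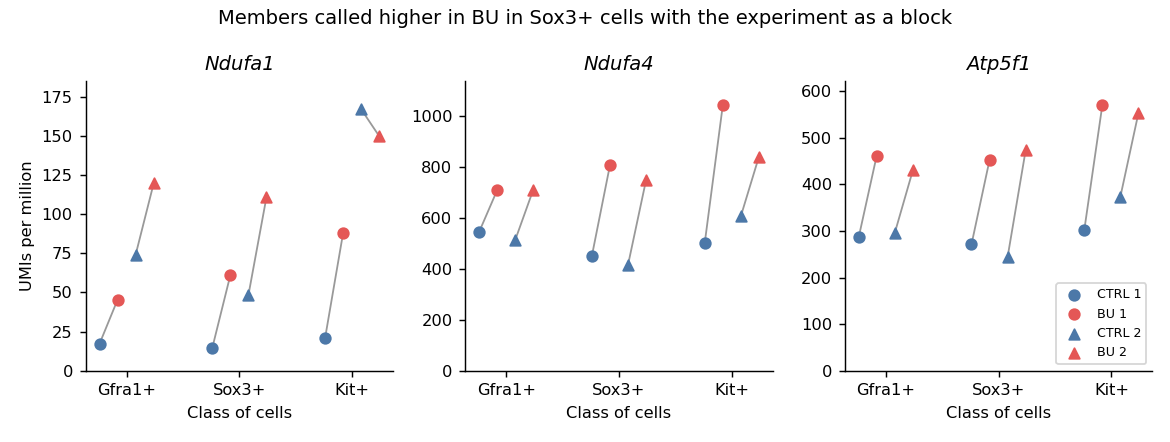
CPM of Ndufa1, Ndufa4 and Atp5f1 in Gfra1+, Sox3+ and Kit+ cells of each library (symbols and colours by experiment and group; lines join the libraries of 1 experiment). Ndufa4 and Atp5f1 are higher in BU in all 6 pairs each, and Ndufa1 in 5 of 6, the exception being Kit+ cells of experiment 2. The classes share cells, so the pairs of 1 experiment are not independent.

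Sox3+ against Gfra1+ cells asks how members change from the stem-cell-rich to the progenitor class. Cells positive for 1 of the 3 genes only were compared within libraries. Of 105 members, 29 were called, 19 higher and 10 lower in Sox3+ cells, beside 35.0% of 13917 genes (17.1% higher, 17.9% lower), so that members were called no more often than genes at large. The calls went both ways in complexes I (7 higher, 4 lower of 36), III (3 and 1 of 8), IV (3 and 2 of 17) and V (3 and 2 of 15), while none of the 4 complex II subunits or their 4 assembly factors was called. The nuclear median was 0.02 on the log2 scale against 0.00 for all genes.

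Cox8c, a testis copy of a complex IV subunit, had the lowest log2 fold change. Cox8c (chromosome 12, 102899316 to 102900526) was at 52.8, 62.7, 54.0 and 82.8 CPM in Gfra1+ cells of CTRL 1, BU 1, CTRL 2 and BU 2. In Sox3+ cells it was at 28.4, 31.8, 24.1 and 37.8, below every Gfra1+ value, and the log2 fold change was -0.98 ± 0.09 (adjusted p = 1.96e-05). Cox7b2 was at 185, 196, 181 and 192 in Gfra1+ cells and 100, 123, 110 and 142 in Sox3+ cells, which again did not overlap (log2 -0.61 ± 0.08, adjusted p = 0.000153). Cox6b2, a testis copy of another subunit, went the other way: 18.8, 21.5, 22.03 and 28.0 in Gfra1+ cells and 24.7, 38.1, 23.2 and 37.4 in Sox3+ cells, a log2 fold change of 0.48 ± 0.11 (adjusted p = 0.00679). It was higher in Sox3+ cells of all 4 libraries but by little in CTRL 2. The call of Cox6b2 was lost with no replicate block, and with classes set as Kit+ first, then Sox3+, then Gfra1+. Cox7a1 (log2 0.38 ± 0.18) and Ndufa4l2 (-0.48 ± 0.45) were not called, and Cox4i2 and Cox6a2 were too low to be tested.

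Late germ cell markers summed to more in Gfra1+ than in Sox3+ cells of every library (1426 against 1143 CPM in CTRL 1, 644 against 467 in BU 1, 2623 against 1436 in CTRL 2 and 1259 against 757 in BU 2). With cells high in those markers left out, the log2 fold change of Cox8c was -1.02 and that of Cox7b2 -0.63, both still called. All 3 testis copies lost their call where any UMI of a class gene was taken to define the class, with Cox8c at -0.63. Among the other members, Atp5g1, Ndufb10, Ndufa2 and Atp5s had the largest rises after Cox6b2, with log2 fold changes of 0.44, 0.41, 0.39 and 0.48. Ndufaf3 (an assembly factor), Atp5h and the NADH-binding subunit Ndufv1 fell by 0.60, 0.41 and 0.33. With no replicate block the calls of all these other members were lost. Those of Atp5g1, Ndufb10, Atp5s, Ndufaf3 and Ndufv1 were also lost with any UMI of the class gene. The call of Ndufaf3 was lost with Kit+ set first, and that of Atp5s in thinned cells. Of the mt- genes, mt-Atp8 and mt-Cytb were called higher, and 12 of 13 had a log2 fold change above 0. The count of all genes above 0 is not given here, so 12 of 13 is not read as a result about mt- genes.

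**Figure D3:**
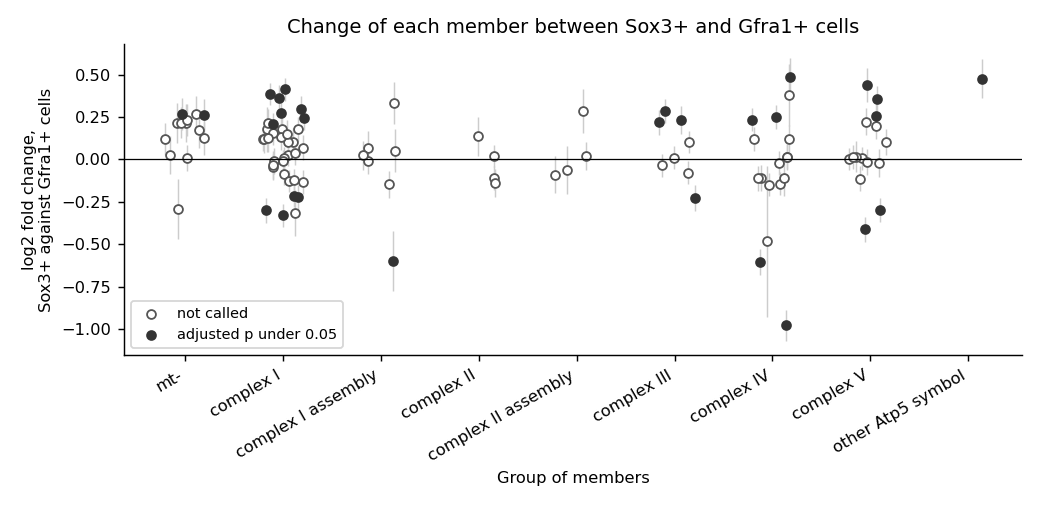
log2 fold change of each tested member in Sox3+ against Gfra1+ cells, by complex, with its standard error; filled points have an adjusted p under 0.05. Called members lie on both sides of 0 in complexes I, III, IV and V, and the lowest point is Cox8c at -0.98.

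Kit+ cells were compared with cells negative for Kit, since cells positive for Kit alone numbered 10 in CTRL 1 and 15 in CTRL 2. Differentiating markers summed to more CPM in Kit+ than in all Gfra1+ cells of CTRL 1 (1473 against 994) and CTRL 2 (956 against 714). They summed to less in BU 1 (1186 against 1436) and BU 2 (897 against 1007). Against Gfra1+ cells, 34 of 106 members were called, 15 higher and 19 lower, beside 34.8% of genes (16.4% higher, 18.4% lower). Against Sox3+ cells, 23 of 106 were called, 6 higher and 17 lower, beside 22.6% of genes (9.47% higher, 13.2% lower). With RLE size factors the split was 10 higher and 9 lower, and with DESeq2 12 higher and 17 lower. The shares of all genes called in those 2 fits are not given here, so the splits are not read as a result about members. In neither comparison was a complex II subunit called.

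Ndufb11 and Ndufv1 of complex I were lower in Kit+ cells, and Cox6b2 was higher again. Ndufb11 (chromosome X, 20615326 to 20617619), a membrane arm subunit, was at 278, 243, 347 and 302 CPM in Gfra1+ cells and 184, 128, 227 and 126 in Kit+ cells, so that the classes did not overlap (log2 -0.97 ± 0.12, adjusted p = 6.90e-05). Against Sox3+ cells its log2 fold change was -0.95 ± 0.12 (adjusted p = 0.000324). Ndufv1 was at 460, 406, 297 and 326 in Gfra1+ cells against 302, 221, 138 and 182 in Kit+ cells (log2 -0.95 ± 0.09, adjusted p = 1.63e-05). Cox7b2 was at 142, 116, 79.0 and 106 in Kit+ cells, below every Gfra1+ value (log2 -0.93 ± 0.13, adjusted p = 0.000225). Its difference from Sox3+ cells was -0.41 ± 0.13 (adjusted p = 0.0399). With all libraries kept, that call was lost with RLE size factors, with any UMI of the class gene and with no replicate block. Its calls without single libraries are not given here. Over the recomputed settings that difference of Cox7b2 ranged from -0.58 to -0.05. Its widely expressed counterpart Cox7b, on chromosome X, was lower too, by log2 0.70 ± 0.13 against Gfra1+ cells (adjusted p = 0.00131). Cox6b2 was at 48.4, 53.9, 31.97 and 47.1 in Kit+ cells, above every Gfra1+ value, while its CTRL 2 value lay below the Sox3+ value of BU 1 (log2 0.87 ± 0.15 against Gfra1+, adjusted p = 0.000602; 0.52 ± 0.14 against Sox3+, adjusted p = 0.0215). Both calls of Cox6b2, and that of Ndufb11 against Sox3+ cells, were lost with any UMI of the class gene. With no replicate block that of Cox6b2 against Sox3+ cells was lost too. Over the recomputed settings the log2 fold change of Cox6b2 against Sox3+ cells ranged from 0.43 to 0.68.

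Cox8c was lower in Kit+ than in Gfra1+ cells (log2 -0.49 ± 0.14, adjusted p = 0.0181), at 39.3, 44.6, 59.5 and 50.8 CPM, and its difference from Sox3+ cells (0.38 ± 0.15) was not called. Its highest Kit+ value was that of CTRL 2, the library whose Kit+ cells were high in late germ cell markers. Ndufa1 was higher in Kit+ cells than in either other class, by log2 0.60 ± 0.17 (adjusted p = 0.0157) and 0.89 ± 0.17 (adjusted p = 0.00366), and Sdhaf3, an assembly factor of complex II, by 0.69 ± 0.15 (adjusted p = 0.00381) and 0.50 ± 0.15 (adjusted p = 0.0318). Ndufa2 and Ndufa12 were higher than in Gfra1+ cells by 0.52 and 0.51, and Atp5f1 and Uqcr11 higher than in Sox3+ cells by 0.28 and 0.26. The assembly factor Ndufaf6 was lower than in both, with log2 fold changes of -0.59 and -0.68, and Ndufv3 was lower than in Sox3+ cells at -0.66. The calls of Ndufa1, Sdhaf3, Atp5f1, Uqcr11, Ndufaf6 and Ndufv3 against Sox3+ cells were all lost with any UMI of the class gene. They were also lost with no replicate block. Against Gfra1+ cells those of Cox8c, Ndufa1, Sdhaf3, Ndufa12 and Ndufaf6 were lost with any UMI of the class gene. With no replicate block the calls of Cox7b, Cox8c, Ndufa1, Ndufa2, Ndufa12 and Ndufaf6 against Gfra1+ cells were lost. Cox6a2 (1.51 ± 0.92 against Gfra1+) and Cox7a1 (0.47 ± 0.25) were not called. Of the mt- genes, mt-Nd3 and mt-Atp8 were called higher than in Gfra1+ cells, and none was called against Sox3+ cells. Without BU 1 the calls fell to 11 against Gfra1+ and 7 against Sox3+ cells, and without BU 2 to 20 and 7. The share of all genes called in those fits is not given here, so the fall is not read as a result about members.

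**Figure D4:**
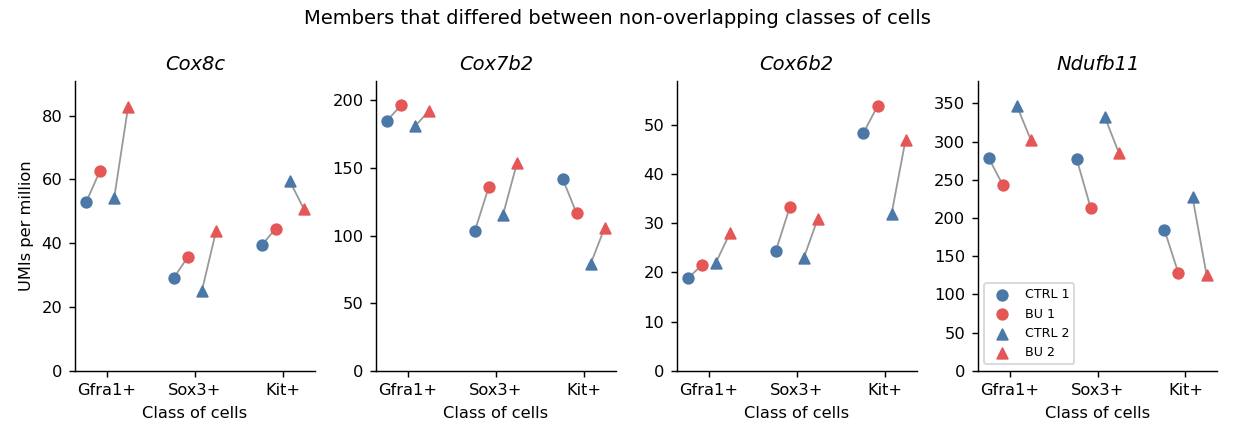
CPM of Cox8c, Cox7b2, Cox6b2 and Ndufb11 in cells sorted into 3 classes that do not overlap (Kit+ first, then Sox3+, then Gfra1+), for each library (symbols and colours by experiment and group; lines join the libraries of 1 experiment). Cox7b2 and Ndufb11 are lower in Kit+ than in Gfra1+ cells, at 79.0 to 142 and 126 to 227, and Cox6b2 is higher at 31.97 to 53.9.

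Genes around the pathway were read from lists of electron carriers, assembly factors, mitochondrial transcription, nuclear regulators and the tricarboxylic acid cycle. In Sox3+ against Gfra1+ cells, where 35.0% of genes were called, 1 of 2 electron carriers was called (Cycs, somatic cytochrome c, log2 0.28), 9 of 27 assembly factors of complexes III to V (4 higher, among them the copper chaperone Sco2 at 0.63, and 5 lower, among them Sco1 at -0.91), 2 of 14 mitochondrial transcription and RNA genes (Lrpprc 0.28 and Tfb2m 0.29, both higher), 2 of 8 nuclear regulators (Ppargc1b 1.29 and Pprc1 0.30, both higher) and 5 of 12 cycle genes (2 higher, 3 lower). In Kit+ against Gfra1+ cells, 1 of 2 electron carriers was called, Cyct, the testis cytochrome c, which was lower by log2 0.73 ± 0.10 (adjusted p = 0.000115) and also lower than in Sox3+ cells (-0.59). Beside the same 34.8% of genes, 8 of 27 assembly factors were called (4 higher, 4 lower), 8 of 14 mitochondrial transcription and RNA genes (5 higher, 3 lower), 1 of 7 nuclear regulators (Gabpb1, higher by log2 0.51) and 9 of 12 cycle genes (3 higher, 6 lower). The cycle genes included Suclg1, the common alpha subunit of succinyl-CoA ligase (-0.60), Suclg2, its GTP-specific beta subunit (0.90), and the isocitrate dehydrogenase subunits Idh3a (0.42), Idh3b (-0.86) and Idh3g (-0.48). For BU against CTRL with the block, 1 of 7 nuclear regulators was called higher and 1 lower in Sox3+ cells, beside 5.69% of genes. Whether they were also called without shared barcodes is not given here. No gene of these lists was called in Gfra1+ cells, beside 0.0660% of genes, or in Kit+ cells, beside 0.952%.

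The change from CTRL to BU was compared between classes within libraries, again in cells positive for 1 of the 3 genes only. It differed between Sox3+ and Gfra1+ cells for 2 of 105 members, both with the lower change in Sox3+ cells, beside 1.13% of genes (0.654% in that direction), namely Cox7b and Atp5g1. Cox7b was at 120, 149, 185 and 202 CPM in Gfra1+ cells and 128, 113, 182 and 154 in Sox3+ cells. It was thus higher in BU in the first class and lower in the second in both experiments (difference of log2 fold changes -0.60 ± 0.12, adjusted p = 0.0265). Atp5g1 was at 726, 658, 604 and 634 in Gfra1+ cells and at 1069, 782, 854 and 714 in Sox3+ cells, where BU was lower in both experiments (-0.49 ± 0.10, adjusted p = 0.0387). The corresponding comparison of Kit+ cells with cells negative for Kit by edgeR called 0 of 106 members against Gfra1+ cells, beside 1.55% of 14186 genes, and 0 against Sox3+ cells, beside 1.21%. At an unadjusted p under 0.05 there were 11 members beside 2224 genes against Gfra1+ cells, and 5 beside 2043 against Sox3+ cells. No call was left in the Sox3+ comparison without barcodes found in more than 1 library, and the calls also changed without some single libraries. Over the recomputed settings the difference ranged from -0.852 to -0.411 for Cox7b and from -0.622 to -0.399 for Atp5g1.

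Several members differed between the experiments. In Gfra1+ cells, 16 of 105 members were called between experiment 2 and experiment 1 with group as a term, 13 higher and 3 lower, beside 7.34% of genes (5.33% higher, 2.00% lower). mt-Nd4l, a complex I subunit, was at 29.8 and 70.3 CPM in CTRL 1 and BU 1 and at 471 and 580 in CTRL 2 and BU 2 (log2 3.46 ± 0.26, adjusted p = 7.98e-05). mt-Nd6 was at 1.68 and 3.22 against 28.5 and 15.2 (log2 2.94 ± 0.41), and mt-Nd3 at 326 and 341 against 853 and 1185 (1.56 ± 0.22). mt-Nd1 went the other way, from 6290 and 5924 to 2917 and 3208 (-1.03 ± 0.23). The largest nuclear changes were in Ndufa1 (1.70), Atp5k (1.65) and, downward, the complex III core protein Uqcrc1 (-1.07) and Atp5b (-0.78).

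The remaining mt- genes held most of the mt- UMIs. mt-Co1, mt-Co3 and mt-Atp6 were the 3 highest, at 13680 to 16280, 11000 to 17070 and 8635 to 17140 CPM in Gfra1+ cells, followed by mt-Co2 (5324 to 8560), mt-Cytb (4108 to 5339), mt-Nd4 (3129 to 3562) and mt-Nd2 (848 to 1654). CTRL 1 stood apart from the other libraries in mt-Nd5, at 176 against 469 to 493, and in mt-Atp8, at 18.7 against 67.6 to 144. BU was therefore 2.67-fold CTRL for mt-Nd5 in experiment 1 and 0.9502-fold in experiment 2, and 3.56-fold and 0.724-fold for mt-Atp8. The same held in Sox3+ cells, with mt-Nd5 at 171, 440, 478 and 466 and mt-Atp8 at 17.8, 87.6, 161 and 129.

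**Figure D5:**
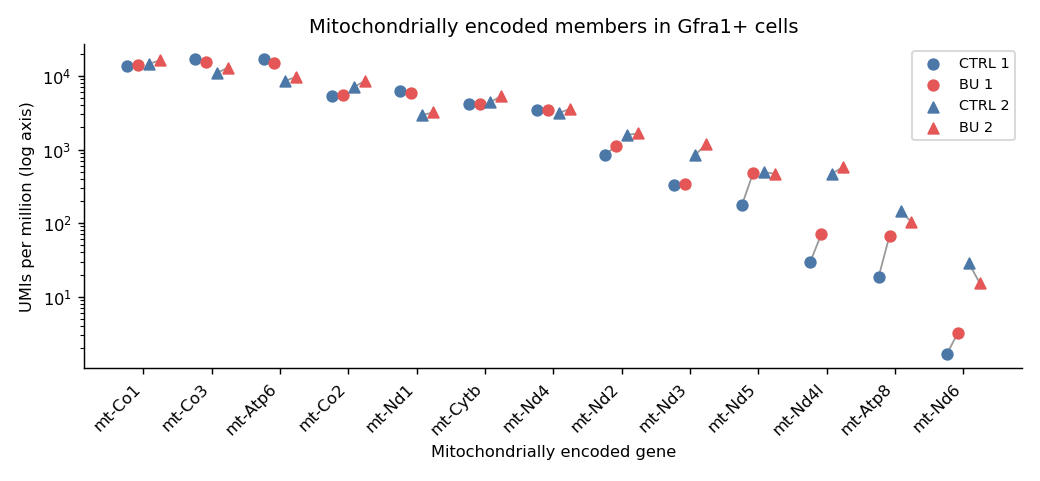
CPM (log axis) of the 13 mt- members in Gfra1+ cells of each library, ordered by mean level (circles, experiment 1; triangles, experiment 2; blue, CTRL; red, BU). mt-Nd4l, mt-Nd6 and mt-Nd3 are higher in both libraries of experiment 2, and CTRL 1 is lowest in mt-Nd5 and mt-Atp8.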

How the data were processed

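Single-cell RNA-seq was made from 4 pooled libraries (2 CTRL, 2 BU). The deposited files hold raw UMI counts per gene and barcode, which the authors made with Cell Ranger; their matrix headers name version 3.0.2, the study's methods name mm10 and the submitters' processing notes name GRCm39 and Seurat 3.2. Gene lists differ (27998 genes in experiment 1, 31053 in experiment 2), and 27514 shared identifiers were used. Coordinates were taken from GENCODE M21 (GRCm38) by identifier.

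UMIs of cells passing the filters (more than 1000 genes, under 20% mt- UMIs) were summed per library and class. No doublet caller was run. Sums were tested with edgeR 4.0.16 (filterByExpr, TMM, quasi-likelihood F test, Benjamini-Hochberg over all genes tested), with DESeq2 1.42.0 as an alternative, in R 4.3.3, and only where each library had at least 20 cells of the class. The gene that defines a class was left out of its tests. Standard errors given with edgeR log2 fold changes are the absolute log2 fold change over the square root of F. They are approximate and need not match the p-value. BU against CTRL was fitted without and with experiment as a replicate block. Classes were compared with library as a block. The planned Kit+ comparison of cells positive for 1 gene could not be fitted, and Kit+, then Sox3+, then Gfra1+ cells were used in its place. Library totals were 21136369 to 53579969 UMIs. The deposited counts are raw; the log-normalization that the study's methods describe is not part of them.

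Replicate numbers pair the samples, since the labels give each number its own kit and lane (the study's methods name the version 2 kit only): deviations from the group means correlated within experiment at 0.779 over all passing cells and 0.664, 0.615 and 0.490 in Gfra1+, Sox3+ and Kit+ cells. Cells of 3 mice were pooled per library, so no p-value measures the spread between mice. Without a block, p-values for BU against CTRL measure the spread between libraries. In fits with a block they measure the spread that is left within experiments or libraries. That spread is estimated in part from other genes. BU against CTRL with the block, and experiment 2 against experiment 1, leave as few residual degrees of freedom as a fit can have. In both, the spread comes mostly from other genes.

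The fits were tested on simulated counts with 200 changed genes. Genes named are all mt- members, tissue isoforms, the highest member of each group, the complex II subunits and some called genes of other lists. Also named are the 5 largest called rises and falls per comparison with a mean of at least 10 CPM. The members and lists were chosen with earlier results of these data known. Promoters came from RefSeq, and the nuclear members without a match included Atp5a1, Atp5f1, Atp5s, Cox4i1, Cox4i2, Cox6a2, Cox6c, Cox8c, Ndufa2, Ndufa4l2, Ndufaf6, Ndufb9, Ndufs1, Sdhc, Uqcrb, Uqcrc2 and Uqcrq.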

Additional observations from a re-analysis of the deposited data

Results flagged for a closer look

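The change from CTRL to BU was called different between Sox3+ and Gfra1+ cells for Cox7b (-0.60 on the log2 scale) and Atp5g1 (-0.49). The test was of the difference itself, and it called 1.13% of all genes. Both calls were lost with Kit+ set first, with any UMI of the class gene, with no replicate block and without shared barcodes. The summed mt- level moved in opposite directions in the 2 experiments: BU minus CTRL was -0.298 percentage points of UMIs in experiment 1 and 0.840 in experiment 2 in Gfra1+ cells, -0.469 and 0.277 in Sox3+ cells, and -0.405 and 0.248 in all passing cells. With 1 library per group in each experiment, these differences between experiments were not tested.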

How the results depend on the processing

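Of 240 recomputed counts and summed levels, 201 stayed within 1.5 times the reported count or within 1 SD of the reported level. With 2 libraries per group, a summed level without a single library could not leave that limit. Such settings therefore say nothing about stability, and a change of sign alone was not counted as a move. Settings with the replicate block combined with another choice, the shared barcodes and the Kit-first classes were added after seeing the data. For BU against CTRL, members called in Sox3+ cells were 3 with the replicate block, 3 with the block and late germ cell or somatic cells left out, 3 with the block and no mitochondrial limit, and 11 with the block and very deep cells left out; in all passing cells the same block settings gave 1, 3, 0 and 2. Leaving out each library gave 0 to 5 members in Sox3+ cells (5 without CTRL 2), 0 to 2 in Kit+ cells (2 without CTRL 2) and 0 in Gfra1+ and all passing cells. In Sox3+ against Gfra1+ cells the calls were 13 with the Kit-first classes, 2 with any UMI of the class gene, 2 with no replicate block and 15 to 25 without single libraries (15 without CTRL 1). In Kit+ against Gfra1+ cells they were 14, 6 and 11 to 36 under any UMI, no replicate block and without single libraries, and in Kit+ against Sox3+ cells 0, 1 and 7 to 19. Class by condition gave 0 with Kit-first classes, any UMI, no replicate block or shared barcodes left out, 1 with RLE size factors, 4 with DESeq2, 4 with no filter on low counts, 4 with late germ cell or somatic cells left out, and 0 to 9 without single libraries. Experiment 2 against experiment 1 gave 35 with any UMI, 25 in thinned cells and 7 without very deep cells. The block changed no other call of BU against CTRL. The cause of these shifts was not tested. The share of all genes called under each setting is not given here, so a change in these counts is not read as a result about members.

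The nuclear BU minus CTRL difference moved to 0.330 percentage points in Sox3+ and 0.412 in Kit+ cells without shared barcodes, and without single libraries it ranged from 0.0734 to 0.403 over all classes. The mt- difference in Kit+ cells moved from -0.573 to 0.219 in thinned cells and 0.100 without shared barcodes. The Kit+ values of these settings rest on under 20 cells in a library. Without single libraries the mt- difference ranged from -0.388 to 0.929 in Gfra1+, -0.624 to 0.433 in Sox3+, -1 to -0.146 in Kit+ and -0.952 to 0.795 in all passing cells. Among single genes, 771 of 906 recomputed values kept direction and call, 110 lost and 17 gained a call, and 8 reversed, none of them called: Ndufa1 in Kit+ cells, BU against CTRL (-0.39 without CTRL 1 and -0.12 without BU 2, in a range of -0.39 to 2.50 without single libraries), Cox7a1 in Kit+ against Sox3+ cells (-0.14 without BU 1 and -0.05 without CTRL 2, to 0.51), and Ndufa4l2 in Sox3+ against Gfra1+ (0.0094 with any UMI), Kit+ against Gfra1+ (0.26 with any UMI; -0.62 to 0.019 without single libraries, the latter without BU 2) and Kit+ against Sox3+ cells (-0.045 without CTRL 2, to 0.64).

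Thinned cells could not be tested in Kit+ comparisons, nor Kit+ comparisons without shared barcodes, for under 20 cells. The experiment comparison without single libraries had no residual degrees of freedom. Depth limits Kit+ cells of CTRL most, with 36 and 37 cells.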
